A study of Mus musculus with 6 samples.

Results

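The Hoxc cluster is the group of 9 homeobox genes on mouse chromosome 15 that runs from Hoxc13 to Hoxc4. Its DNA methylation was read from the peaks of 3 mouse blood cell types that shared at least 1 bp with chr15:102740000-102880000 (mm9), a window of about 140 kb, and was set against 200 kb on each side. The window held 1 of 85797 peaks in stem cells, 0 of 50638 in myeloid progenitors and 0 of 27839 in erythroblasts. The peaks came from MBD2 pulldown, in which the methyl-CpG-binding protein MBD2 retains DNA fragments that carry methylated CpG sites and the retained DNA is sequenced. A peak is a stretch that the authors called as bound.

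Of the 3 peak lists, the first came from hematopoietic stem cells (HSC), the second from common myeloid progenitors (CMP), which give rise to granulocytes, monocytes and red cells, and the third from erythroblasts (ERY), red cell precursors that still have a nucleus. All libraries were labelled as made from female mice of the C57BL/6 background, with no treatment other than the pulldown. HSC were lineage-depleted marrow cells that carried both Sca-1 and c-kit on their surface, and CMP were lineage-depleted cells with c-kit and without Sca-1, both from adult bone marrow. The labels do not say how ERY were collected. These gates hold mixed populations, and no expression data were at hand to check the labels by marker genes. Each cell type had 1 enriched library, so differences between stages lack replicates, and none was tested. Read depth is unknown, and the lists hold positions alone. Absence of a peak therefore means that none was called at that library's sensitivity, not that the DNA was shown to be free of methylation.

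Hox genes encode homeodomain transcription factors that give cells their position along the body axis, and within a cluster the gene order follows the order of expression along that axis. In many mammalian cell types Hox clusters lie in long stretches of low DNA methylation, rich in CpG islands and often covered by Polycomb proteins. In blood, Hox genes of the A and B clusters are the best known regulators of stem cells, while most genes of the C cluster are better known from skin, limb and spinal cord.

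All 9 genes were found in the RefSeq gene table of assembly GRCm38.p6, which was used for names and order alone because the peaks are placed on mm9. Hoxc13 regulates hair and nail keratin genes, and Hoxc10 acts in hindlimb and lumbar spinal cord. Hoxc9 and Hoxc8 set thoracic identity in vertebrae, and Hoxc4 is a homeodomain factor that acts in B cells. The order of the genes along the chromosome was Hoxc13, Hoxc12, Hoxc11, Hoxc10, Hoxc9, Hoxc8, Hoxc6, Hoxc5 and Hoxc4. Ordered by start position, the table lists 5 noncoding genes among them. They include Hotair, a long noncoding RNA listed after Hoxc12, Mir196a-2, listed after Hoxc10, and Mir615, listed after Hoxc5. A gene listed after another in this order may lie inside it.

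A promoter was at hand for 1 of the 9 genes, Hoxc4. The 250 bases before its start (RefSeq, GRCm38.p6, chromosome 15, plus strand, 5′ to 3′) are shown because CpG sites, given in capitals, are the sites that MBD2 binds when they are methylated.

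Hoxc4: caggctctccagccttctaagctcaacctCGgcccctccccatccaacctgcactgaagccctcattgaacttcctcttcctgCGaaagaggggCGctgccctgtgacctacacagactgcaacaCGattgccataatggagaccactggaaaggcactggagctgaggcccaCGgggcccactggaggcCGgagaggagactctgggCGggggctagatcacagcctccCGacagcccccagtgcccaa

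This stretch holds 8 CpG sites. With the 50 bases after the start the Hoxc4 promoter holds 9 CpG sites in 300 bases, beside a median of 7 (interquartile range 3 to 20) over 32851 promoters of the table, and 45.8% of promoters hold at least as many. Its share of G and C is 60.3%, beside a median of 52.7%. The ratio of observed CpG sites to those expected from the numbers of C and G is 0.333, beside a median of 0.384. Hoxc4 thus has a GC-rich promoter with a CpG number in the middle of the range and a CpG ratio slightly below the median. The study's title names binding sites of ETS factors, a family of transcription factors that bind around the letters GGAA. Searched on both strands, GGAA occurred 4 times in the Hoxc4 promoter, beside a median of 3, and 96.0% of promoters hold it at least once. The longer form CCGGAA, which contains GGAA, had 0 matches in Hoxc4 and is held by 14.9% of promoters. These matches are a description of the letters alone.

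Mature microRNAs encoded within the Hoxc cluster, miR-196a-5p and miR-615-3p, are shown because they are short RNA products of the cluster. The sequence of miR-196b-5p, encoded elsewhere, is shown for its shared seed. The seed (bases 2 to 8) is in capitals (RefSeq, GRCm38.p6, 5′ to 3′).

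miR-196a-5p: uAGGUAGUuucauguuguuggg

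miR-196b-5p: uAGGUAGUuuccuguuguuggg

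miR-615-3p: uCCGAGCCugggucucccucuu

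miR-196a-5p is also encoded by Mir196a-1 on chromosome 11. miR-196b-5p comes from Mir196b on chromosome 6, shares the seed and differs from miR-196a-5p at 1 position (A12C, counted from the 5′ end, with the base of miR-196a first). Both are known to act on Hox messenger RNAs. No other mature microRNA of the table has the seed of miR-615-3p.

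The Hoxc window was nearly empty of methylation peaks at all 3 stages. In HSC it held 1 peak, at chr15:102830644-102831608, 965 bp wide. In CMP and in ERY it held 0 peaks. Since the rule of the window places Hoxc13 to Hoxc4 in it, no CMP or ERY peak was called at any of the 9 genes inside these borders, and in HSC no peak was called in the window outside those 965 bp. The HSC peak covered 0.689% of the window. Its midpoint lay 65.1% of the way from the Hoxc13 border to the Hoxc4 border. Which gene it overlaps was not determined, because gene positions on mm9 were not at hand.

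**Figure D1:**
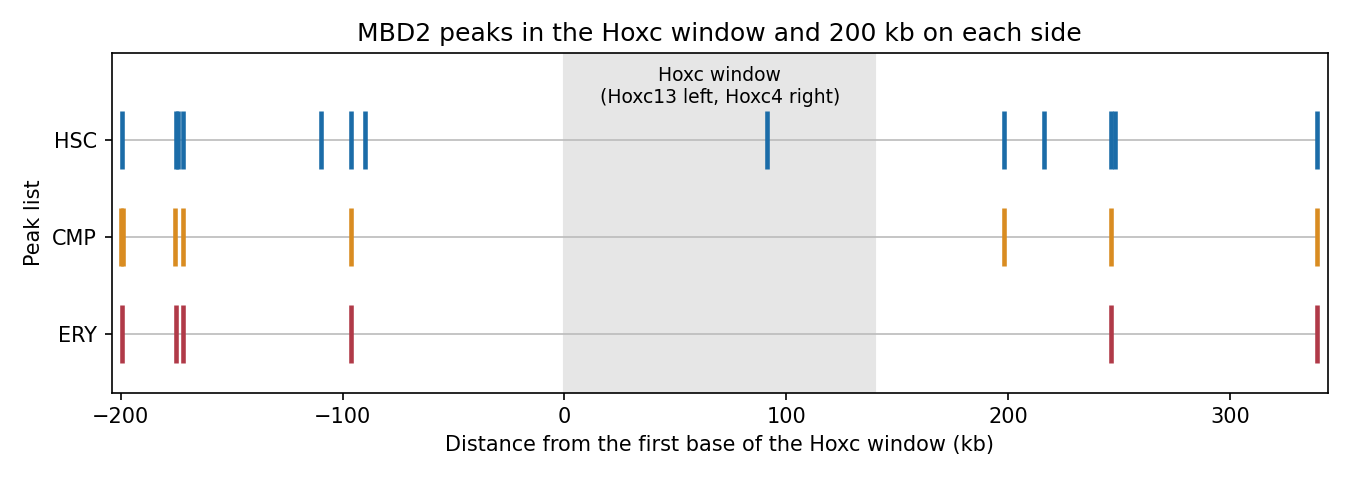
Peaks of the HSC, CMP and ERY lists by distance in kb from the first base of the Hoxc window, which is shaded, with 200 kb on each side. Each vertical mark is 1 peak, drawn wider than to scale at the peak's midpoint (or at the border, for a midpoint outside it), and the shaded window holds a single mark, in the HSC row.

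The DNA on both sides carried peaks in every list. In HSC the flank beside Hoxc13 held 7 peaks and the flank beside Hoxc4 held 5. In CMP these flanks held 5 and 3 peaks, and in ERY 4 and 2. Each flank thus had more peaks than the window in all 3 cell types, although both had fewer at each later stage. Per 100 kb, HSC had 0.714 peaks in the window, 3.0 in the flanks together and 3.38 over the 19 autosomes. CMP had 0 in the window, 2.0 in the flanks and 1.99 over the autosomes, and ERY had 0, 1.5 and 1.10. At the density of its 200 kb flanks, a window of this length would hold 4.2 HSC, 2.8 CMP and 2.1 ERY peaks. These numbers depend on flank length, since flanks of 100 kb held only 2.0 HSC, 1.0 CMP and 0.5 ERY peaks per 100 kb.

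By covered bases the window was again the lowest in each list. In HSC, peaks covered 0.689% of the window, 2.76% of the flanks and 2.73% of the autosomes. In CMP they covered 0% of the window, 1.67% of the flanks and 1.70% of the autosomes, and in ERY 0%, 1.30% and 0.909%. The HSC window value was 0.25 times that of the flanks and 0.252 times that of the autosomes. The place of the flanks relative to the autosomes depended on their length. In ERY, flanks of 200 kb held 1.5 peaks per 100 kb, flanks of 100 kb held 0.5 and flanks of 500 kb held 1.1, beside 1.10 over the autosomes. The difference between window and flanks was not tested, since the peaks of 1 library are not replicates.

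**Figure D2:**
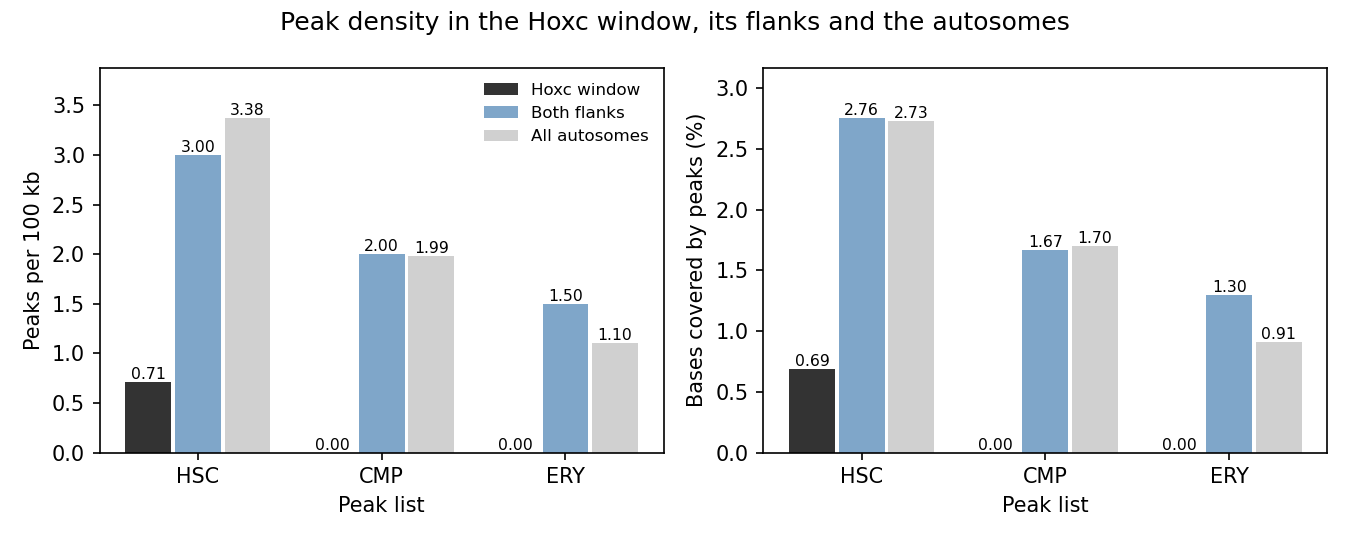
Peaks per 100 kb (left) and percent of bases covered by peaks (right) in the Hoxc window, in both flanks together and over all autosomes, for the HSC, CMP and ERY lists; each bar is 1 value from 1 library, without error bars. The window is lowest in each list, at 0.71 peaks per 100 kb in HSC and at 0 in CMP and ERY.

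The borders of the window did not cut through a peak. On the Hoxc13 side the nearest HSC peak outside was chr15:102649628-102650245 (618 bp), 89.8 kb away. The nearest there was chr15:102643332-102643912 (581 bp, 96.1 kb away) in CMP and chr15:102643336-102644185 (850 bp, 95.8 kb away) in ERY. On the Hoxc4 side the nearest HSC peak was chr15:102937725-102938569 (845 bp, 57.7 kb away). In CMP it was chr15:102937738-102938291 (554 bp), also 57.7 kb away, at the place of the HSC peak. In ERY no peak was called there, and the nearest was chr15:102985985-102986822 (838 bp), 106.0 kb away. The parts of the flanks next to the window were thus also without peaks, and with flanks of 100 kb the flank densities were lower, at 2.0 HSC, 1.0 CMP and 0.5 ERY peaks per 100 kb.

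The stretches without peaks around the cluster were long and were longer at each later stage. In HSC 180.4 kb without a peak lay on the Hoxc13 side of the single peak and 106.1 kb on its Hoxc4 side. In CMP 1 stretch of 293.8 kb contained the whole window, and in ERY 1 of 341.8 kb. Beside the median stretch between neighbouring autosomal peaks, the longest was 17.4 times as long in HSC, 15.9 times in CMP and 10.8 times in ERY. Stretches at least this long made up 2.21% of 83411 in HSC, 2.28% of 49035 in CMP and 5.60% of 27247 in ERY. Such stretches held 22.4% of the autosomal length in HSC, 21% in CMP and 37.6% in ERY, so a large part of the genome lies in stretches as long. On chromosome 15 there were 87 such stretches in HSC, 51 in CMP and 60 in ERY, those of the cluster included.

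**Figure D3:**
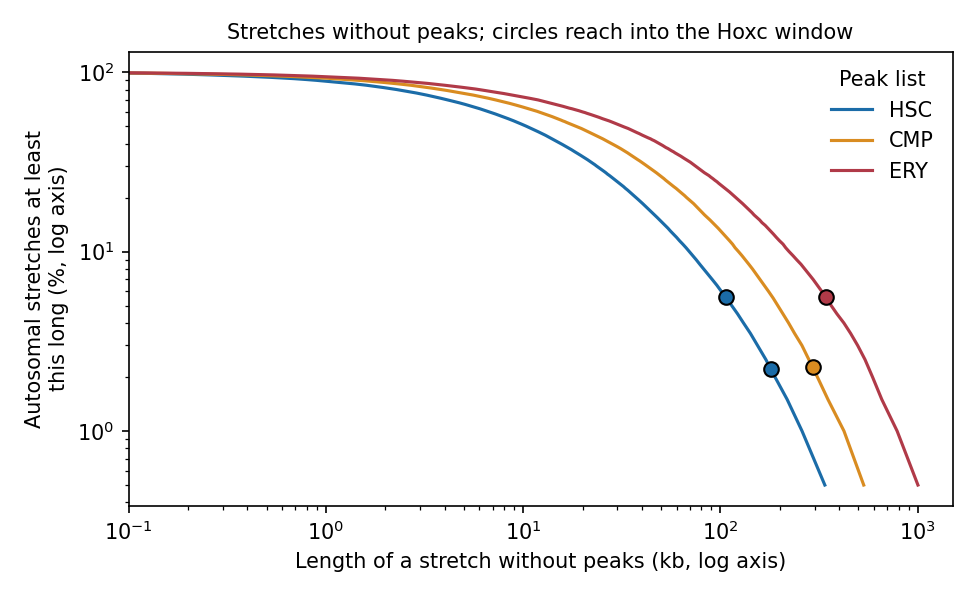
Share of autosomal stretches without peaks (percent, log axis) that are at least as long as the length on the horizontal axis (kb, log axis), as 1 line per list, with circles for the stretches that reach into the Hoxc window (2 for HSC and 1 each for CMP and ERY). The circles lie towards the long end of each line, at 106.1 kb and 180.4 kb in HSC, 293.8 kb in CMP and 341.8 kb in ERY.

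Among windows of the same length the low number at Hoxc was common. Of 17647 consecutive autosomal windows, 30.8% held at most 1 HSC peak, 24.0% held 0 CMP peaks and 41.0% held 0 ERY peaks. The median window held 3 HSC peaks (interquartile range 1 to 7), 2 CMP peaks (1 to 4) and 1 ERY peak (0 to 2). All 3 conditions together were met by 3496 windows, or 19.8%. Many of these had no peak in any list (2516 windows, 14.3%), and whether reads can be placed uniquely there was not examined. Among the 15131 windows with a peak in at least 1 list, 6.48% met all 3 conditions. The Hoxc window was low beside its flanks of 200 kb, and less so beside flanks of 100 kb. In CMP and ERY it held the lowest number possible, which many other windows share.

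**Figure D4:**
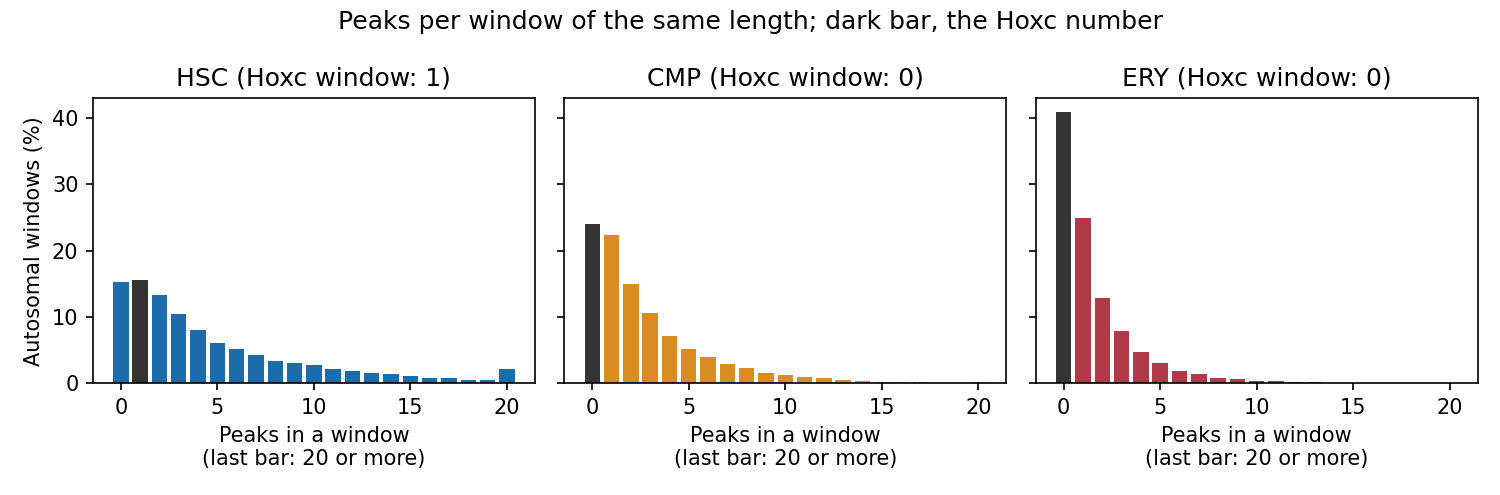
Percent of autosomal windows of the Hoxc window's length (vertical axis) by the number of peaks in them (horizontal axis, with 20 or more together), 1 panel per list; the dark bar is the number in the Hoxc window. That number is 1 in HSC, and in CMP and ERY it is 0, the most common number in both lists.

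The single Hoxc peak of HSC had no counterpart at later stages. It shared no base with a CMP or an ERY peak, which is 0 of 1 peak kept (95% exact Clopper-Pearson interval 0 to 97.5%, for counting error only). Over the whole HSC list, CMP kept 57.1% of peaks and ERY kept 30.9%, where kept means at least 1 shared bp. The absence of 1 peak cannot be told apart from that background. In windows with exactly 1 HSC peak, 980 of 2750 had neither a CMP nor an ERY peak, which is 35.6% (interval 33.8 to 37.5%).

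In the flanks part of the peaks was kept. From HSC to CMP 7 of 12 flank peaks were kept, or 58.3% (interval 27.7 to 84.8%). From HSC to ERY 6 of 12 were kept, or 50% (21.1 to 78.9%). From CMP to ERY 7 of 8 were kept, or 87.5% (47.4 to 99.7%), beside 50.7% of the whole CMP list. These 7 CMP peaks lay in 6 merged regions, because neighbouring CMP peaks near the outer border of the Hoxc13 flank fell in the same region. The window itself had no CMP peak to keep. With these few peaks the interval of each share contains the whole-list value. The intervals take neighbouring peaks of a single library as independent, so a departure of the flanks from the genome was not tested.

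Merging the peaks of the 3 lists gave 1 region in the window, with a peak in HSC alone. The flanks held 12 regions, of which 5 were HSC peaks without a counterpart, 1 was shared with CMP and 6 had peaks in every list. In both flanks every region had an HSC peak. Over the whole genome, these classes made up 40.7%, 26.4% and 28.5% of 87514 regions.

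The Hoxc peak was isolated, and it was wider than most HSC peaks. Its 965 bp were reached or passed by 23.0% of HSC peaks, and its nearest HSC neighbour was 106.1 kb away, a distance reached or passed by 1307 HSC peaks (1.52%). Of these 1307 distant peaks, CMP kept 61.7% (interval 59.0 to 64.3%) and ERY kept 26.2% (23.9 to 28.7%). In the 10% width class of the Hoxc peak (895 to 999 bp, 8533 peaks) CMP kept 64.7% (63.6 to 65.7%) and ERY 36.4% (35.4 to 37.5%). Absence from CMP was thus the less frequent outcome for peaks as wide or as isolated as this one, and absence from ERY the more frequent outcome. The same held over the whole HSC list, of which CMP kept 57.1% and ERY 30.9%, so neither outcome is particular to such peaks.

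In the flanks the peaks absent from CMP were the narrow ones. The 5 flank HSC peaks absent from CMP were 516 to 736 bp wide. The 7 kept ones were 829 to 1973 bp wide, so these groups did not overlap. Over the whole HSC list, where 57.1% of peaks were kept in CMP, the widths did overlap. They were 246 to 2933 bp (median 678) in absent peaks and 252 to 19797 bp (median 812) in kept ones. The flank split also depends on the overlap rule, since 66.7% of flank HSC peaks were kept in CMP with a gap of up to 500 bp allowed. For ERY the widths of the flank peaks did overlap, with 516 to 845 bp in the 6 absent peaks and 829 to 1973 bp in the 6 kept ones. The 965 bp of the Hoxc peak lay within the range of the kept flank peaks for CMP and for ERY. This comparison was chosen after the values were seen and has no test. Over the whole list, 12.1% of the HSC peaks absent from CMP (4445 peaks) were at least 965 bp wide.

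The widest peak of the flank beside Hoxc13 was chr15:102539794-102541766 (1973 bp) in HSC, which crosses the outer border of that flank. In CMP it was chr15:102564085-102565305 (1221 bp) and in ERY chr15:102539930-102541039 (1110 bp). In the flank beside Hoxc4 the widest was chr15:102986034-102987068 (1035 bp) in HSC, chr15:102985802-102986927 (1126 bp) in CMP and chr15:102985985-102986822 (838 bp) in ERY. These 3 peaks overlap at 1 place, where all 3 lists had a peak. Methylated DNA was thus called in all cell types on both sides of the cluster.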

How the data were processed

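DNA retained by MBD2 and the unbound supernatant were sequenced from HSC, CMP and ERY, 1 library of each kind per cell type. The 3 supernatant libraries are not analysed here. Reads of 36 bp from an Illumina Genome Analyzer were placed uniquely, per the labels' protocols, and, per the submitters' processing notes, on build mm9. For each enriched library the authors deposited a list of peaks with chromosome, start and end and no score or height. It was exported through a table browser, per the file headers. No label or header names the aligner, the peak caller, its threshold or its control. Unique placement of short reads leaves out repeats, which lowers peak numbers there.

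Positions are printed 1-based on mm9. A peak belonged to the window, a flank or another peak with 1 shared bp, and overlapping or touching peaks of the lists were merged into regions. Windows of the same length were tiled over the 19 autosomes from the first base. Intervals are exact Clopper-Pearson at 95%, for counting error only, with peaks taken as independent. With 1 library per cell type no test was run. Overlaps were checked against bedtools and tested on simulated data. Python 3.11.15, numpy 2.4.6, pandas 2.3.3, scipy 1.17.1 and matplotlib 3.10.9 were used.

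The cluster, the window and the comparisons were chosen with earlier results of these data known. All 9 genes and every region of the window were named, and of the flanks the widest peak and the peak nearest the window in each list. Alternatives were other overlap rules, only the wider 50% of the peaks, merging within 500 bp, flanks of 100 and 500 kb, the tiling and the promoter part.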

Additional observations from a re-analysis of the deposited data

How the results depend on the processing

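The 23 values of the Hoxc window recomputed under other settings did not move: 1 HSC peak, 0 CMP and 0 ERY peaks, 0% kept and 1 region in HSC alone. Nearly all of these were fixed in advance and add no support. A number of 0 stays 0 when peaks are left out or held to a stricter overlap. The HSC peak is wider than most and far from other peaks, so it could not drop out or merge. Over all results, with these 23 included, 56 of 69 values stayed within 1.5 times (counts and densities) or within their interval (shares). With the wider 50% of each list the flanks held 1.75 HSC and 0.75 CMP peaks per 100 kb. They held 2 regions with an HSC peak only, 0 shared by HSC and CMP alone and 3 with a peak in every list. The share of flank CMP peaks kept in ERY was then 100%. It rests on very few CMP peaks, and the whole-list share was not computed at this setting. The peak densities are lower by construction, since narrower peaks are left out. Flanks of 100 kb held 1.0 CMP and 0.5 ERY peaks per 100 kb. In windows with a peak in any list, 19.3% held at most 1 HSC peak, 11.3% held 0 CMP and 31.2% held 0 ERY peaks, by construction lower than over all windows. On chromosome 15 alone, an alternative chosen after seeing the data, 24.8% held 0 CMP peaks. Of promoters cut to the upstream part, 43.0% held at least as many CpG sites as Hoxc4. Where no construction is named, the cause was not tested. No paired analysis was possible because each cell type has 1 library and the result comes from no test. Read depth is unknown, so how far sensitivity sets the absence of CMP and ERY peaks was not tested, and ease of read placement in the window was not examined.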
